A study of Mus musculus with 18 samples.

Results

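The miRNA entries of miRBase, the public registry of microRNAs, with a number from 5000 up to, but not including, 7000 were examined in BV-2 microglial cells. All rows named mmu-mir or mmu-miR with a number in this range were taken, with any letter or arm suffix, except mir-6243, mir-6240 and mir-6236. Members were then selected on their reads, which had to sum to 10 or more over the 18 samples. Of 2134 features in the deposited values, 326 lay in the number range and 220 passed, which is 16.1% of the 1363 features with at least 10 reads. They were 129 hairpins (precursors, written mir) and 91 mature miRNAs (written miR), and a hairpin and its mature product were separate features. The 106 entries in the range that did not pass had from 1 to 9 reads in 99 cases and none in 7. Just inside the limit, with 10 reads, stood miR-5124b, miR-5616-5p, miR-5617-3p, mir-5620, miR-5625-3p, mir-6237 and miR-6392-3p. With 9 reads, just outside, were mir-5617, miR-5626-3p, mir-6336, miR-6360, mir-6402, mir-6409 and mir-6414.

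Small RNA was sequenced from BV-2 cells, an immortalized mouse microglial line, in 6 groups of 3 samples. The groups were untreated control cells, LPS (bacterial lipopolysaccharide, 100 ng/ml), CBD (cannabidiol, 10 μM), THC (tetrahydrocannabinol, 10 μM), CBD+LPS and THC+LPS, and by the study's methods the cannabinoid preceded LPS by 2 h and LPS then acted for 4 h. Each sample is named below by its group and by the number of its label, from 22 to 39, which served as a name alone. Nothing in the labels says that the samples of a group were separate cultures, so the p-values measure the spread between these samples, which may be technical.

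A microRNA is cut from a folded precursor, first in the nucleus by Drosha and then in the cytoplasm by Dicer, and its mature strand guides Argonaute to messenger RNAs that pair with its seed, bases 2 to 8. Numbers in miRBase are given in order of submission, so that high numbers mark entries added late, most of them found by sequencing of small RNA. Entries of this kind are often supported by few reads, and a number of them lie within other non-coding RNAs such as small nucleolar RNAs (snoRNAs), so that fragments of those RNAs can be counted on them.

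Sequences were found in RefSeq (GRCm38.p6) for 72 of the 91 mature members and 108 of the 129 hairpins. The mature sequences below belong to members called in a comparison of treatments, and are written 5′ to 3′ with the seed in capitals.
miR-5123: uGUAGAUCcauaugccauggugug
miR-6384: gCUUUCCUacuguuucccug
miR-6390: gAAUUGAUcaggauguaacca
miR-5710: uCUUGGGAcauaguguaaggca
miR-5129-5p: aUGUGGGGgcauugguauuuuc
miR-6351: uAGCGUUGcucagggagcacaug
miR-6239: uAGCGUUGgaucacucggug
miR-6241: cACGGCGGcuggaauuccc
miR-6351 and miR-6239 have the same seed, AGCGUUG. The only other seed held by more than 1 member with a sequence was GGCUCAG, in miR-5124b and miR-6413.

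The positions are those of the hairpin genes in GENCODE M21 on GRCm38, which lists a gene for 210 members. Of these, 71 lay in an intron, 45 overlapped an exon of another gene on the same strand, 47 lay opposite a gene and 47 were outside genes. The hairpin of miR-6384 lies at chrX:52378121-52378181 (- strand) in an intron of Gpc3, and that of miR-5123 at chr4:40850056-40850138 (- strand) in an intron of B4galt1. The hairpin of miR-6390 overlaps an exon of the non-coding transcript Gm6145 at chr14:105623642-105623770 (- strand). Mir5117 lies at chr1:161037356-161037439 (+ strand) in Gas5, a host gene of snoRNAs, and GENCODE itself types it as a snoRNA. The hairpin of miR-5121 lies at chr7:45126918-45126991 (- strand) within Rpl13a and Snord33, and its mature sequence, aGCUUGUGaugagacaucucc, is contained whole in Snord33, the one case among the 72 mature members of an exact match inside another small RNA of the set searched. That set held GENCODE transcripts such as ribosomal RNAs, snoRNAs and small nuclear RNAs. Its ribosomal RNAs were limited to those annotated in GENCODE, and whether they cover every ribosomal RNA was not checked. It held no nuclear tRNA sequences. An origin of the other members from tRNAs, or from ribosomal RNAs outside the set, was therefore not tested.

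A few hairpins held most of the reads. The 220 members took 7.26% of all reads, from 5.56% to 10.1% per sample, and their summed level ran from 61326 to 84777 CPM, the authors' unit of reads scaled by library size and TMM factor. The hairpins mir-5099, mir-5103, mir-5105 and mir-5109 supplied 75.5% of the members' reads, and the 10 most abundant members 93.2%. At the other end, 145 members had fewer than 100 reads over the 18 samples, and the median was 43 reads. Values below 3 reads in a sample, 2.98 to 6.38 CPM by depth, were at the counting floor, which covers counting error alone since PCR copies are not independent molecules.

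The libraries held 442718 to 1057147 reads. The hairpins mir-6243, mir-6240 and mir-6236, called the 3 abundant hairpins here, together took from 0.151% to 4.55% of a library. Their share was 0.204% in control 22, 0.361% in THC+LPS 27, 0.160% in CBD 30 and 0.151% in CBD 36, against 1.20% to 4.55% in the other 14 samples. The samples with the low share stood apart for the members as well. Members with at least 1 read numbered 124 in control 22, 144 in THC+LPS 27 and 142 in each of CBD 30 and CBD 36, and 165 to 199 in the other samples. These 4 libraries were also among the shallower ones, with 442718, 539785, 541844 and 660003 reads. In the comparisons of treatments, the part of depth and that of the share of these hairpins were not tested apart. The slopes below were also refitted with log2 total reads beside the hairpins, as given in the last section. Results that rest on these 4 libraries are given with and without them. Without them the CBD group is CBD 24 alone, and the fits then assume that this lone sample varies like the samples of the other groups. Samples 22 to 27, 1 of each group, stood apart as well. Between samples of the same group, the chi-square per degree of freedom of their reads was 41.3 to 98.6 in the 12 pairs with 1 sample from 22 to 27, and 3.04 to 51.6 in the 6 pairs within 28 to 39. The 51.6 was that of control 28 against control 34, and the other pairs within 28 to 39 reached at most 9.73. The labels do not call these sets a batch, and fits with samples 22 to 27 as a covariate, chosen after seeing the data, are given below where they change a call. As a check of the LPS labels, miR-155-5p, an miRNA known to be induced by LPS, was 3.33 ± 0.22 (SE) higher on the log2 scale in LPS than in control samples (limma, adjusted p = 1.66e-08).

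**Figure D1:**
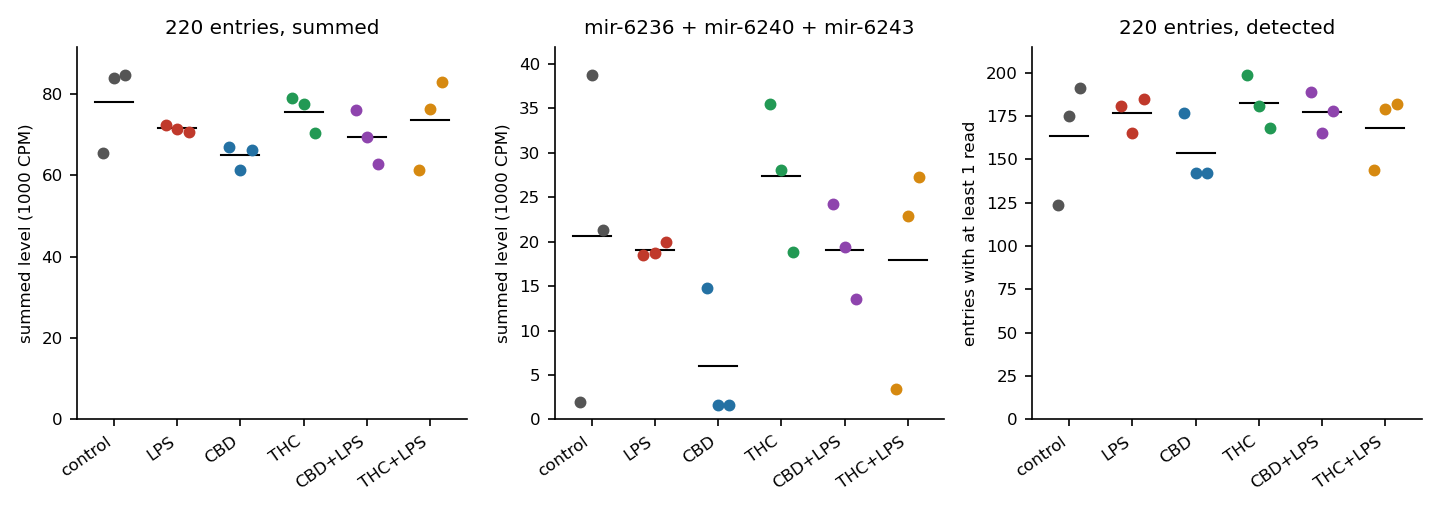
Summed level of the 220 members (left, in 1000 CPM), summed level of the 3 abundant hairpins, mir-6243, mir-6240 and mir-6236 (middle, in 1000 CPM) and number of members with at least 1 read (right), by group. Points are samples and lines are means of 3. The members' sum lies between 61326 and 84777 CPM, while that of the 3 hairpins is between 1577 and 3465 CPM in 4 samples and between 13511 and 38817 CPM in the others.

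The members were next set against the level of these 3 hairpins within the treatment groups. For each of the 1363 features a slope was fitted, the change in log2(CPM + 1) per unit of the log2 sum of the 3 abundant hairpins, beside the 6 groups (limma). A slope of 1 means that the feature doubled where the 3 hairpins doubled. The slope was past the threshold (adjusted p at most 0.1) in 56 of the 220 members, 55 of them positive, which is 25.5% of the members against 16.9% of all features tested (14.2% positive) and 15.2% of the 1143 tested features outside the list. The 1363 and the 1143 both include the 3 hairpins themselves, whose slopes follow from how the predictor was built. The median slope was 0.15 over the members and 0.04 over all features. Without samples 22, 27, 30 and 36, the slope passed the threshold in 11 members (5.0%) against 2.27% of all features, and 51 of the 56 kept their sign with a median of 0.77. The larger share of members is thus a description of all 18 samples, and rests on these 4 for most of its count.

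**Figure D2:**
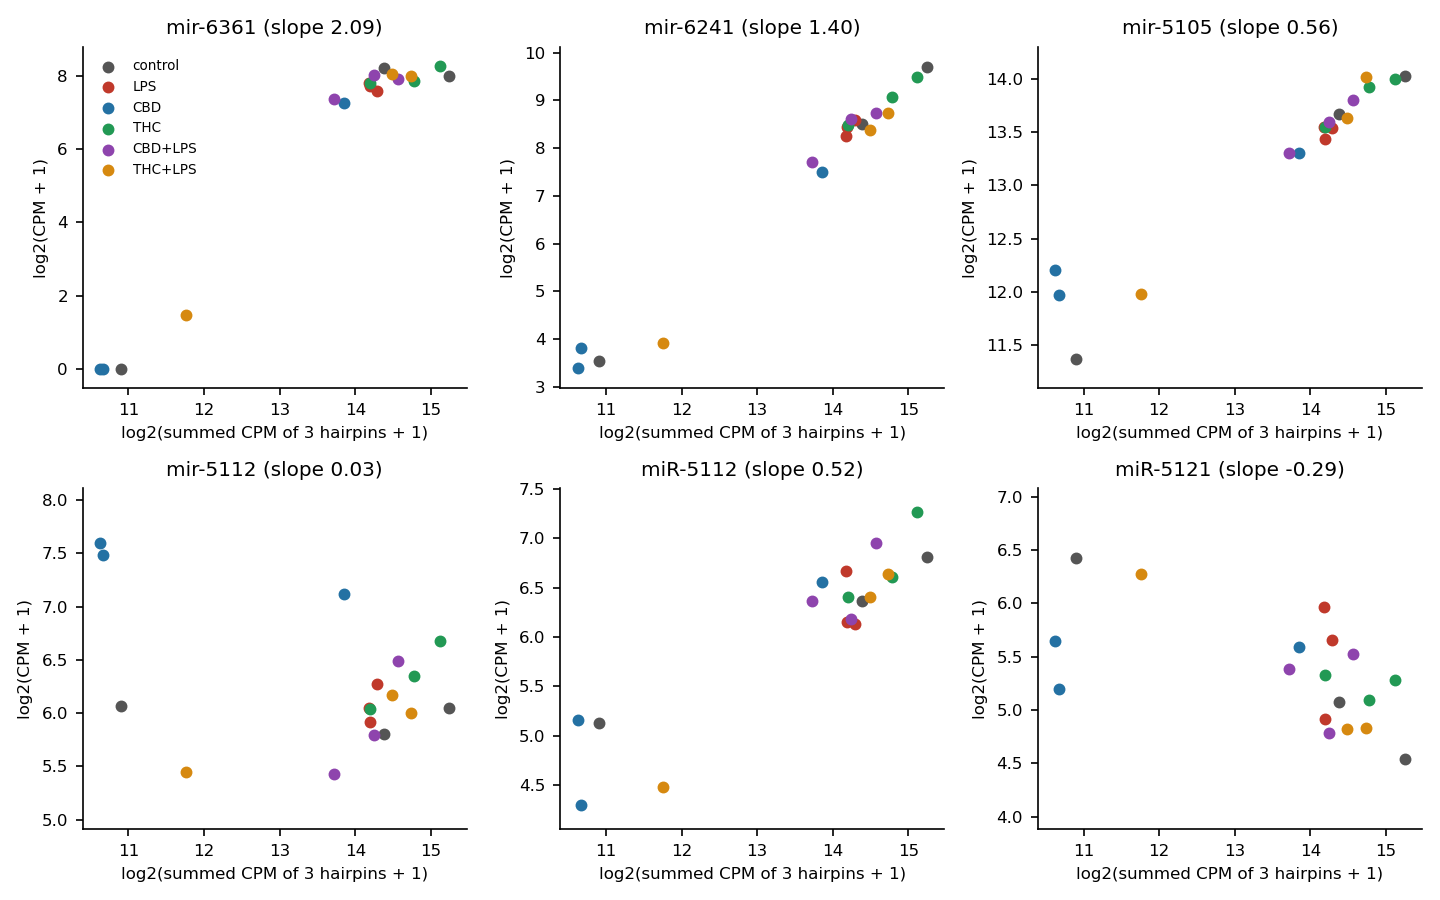
Level of 6 members, log2(CPM + 1), against the log2 of the summed CPM of the 3 abundant hairpins in 18 samples, coloured by group. The first 3 panels show members that fell with the 3 hairpins (mir-6361, mir-6241, mir-5105), and the last 3 show mir-5112 (slope 0.03), miR-5112 (slope 0.52) and miR-5121 (slope -0.29).

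The steepest slope was that of mir-6361. Its reads were 0, 148 and 250 in control, 169, 158 and 184 in LPS, 106, 0 and 0 in CBD, 308, 194 and 163 in THC, 211, 193 and 136 in CBD+LPS, and 1, 221 and 222 in THC+LPS, each group in the order of its sample numbers. The hairpin was nearly absent from the 4 samples named above and was counted in every other sample with at least 106 reads. Its slope was 2.09 ± 0.11 (SE, adjusted p = 1.67e-11, limma).

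mir-6241 and its mature product had the slopes with the smallest adjusted p among the members. The hairpin lies at chr14:118258634-118258736 (+ strand) in an intron of the non-coding transcript Gm4675. In the same order its reads were 5, 487 and 311 in control, 233, 264 and 375 in LPS, 125, 7 and 6 in CBD, 727, 458 and 265 in THC, 375, 295 and 174 in CBD+LPS, and 8, 283 and 374 in THC+LPS. The lowest 4 values were again those of control 22, CBD 30, CBD 36 and THC+LPS 27. The slope was 1.40 ± 0.06 for mir-6241 (adjusted p = 2.07e-13) and 0.95 ± 0.04 for miR-6241 (adjusted p = 1.08e-12, limma), whose CPM ran from 39.4 in CBD 30 to 1228 in control 28.

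mir-5104, at chr10:7836381-7836474 (+ strand) in an intron of Zc3h12d, had from 2.13 to 224 CPM and a slope of 1.23 ± 0.09 (adjusted p = 1.63e-09). miR-6342, from chr1:29421488-29421612 (+ strand) outside genes, was not counted in control 22, CBD 30, CBD 36 or THC+LPS 27 and reached 55.7 CPM in THC 25. Its mature sequence is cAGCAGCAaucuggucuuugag, and its slope was 1.44 ± 0.10 (adjusted p = 1.96e-09). Further slopes above 1 belonged to mir-6364, mir-6372, miR-6237, miR-6238 and mir-6383, so that 9 members in all had a slope of at least 1.

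The most abundant members were divided. mir-5105 had 1246, 9743 and 11210 reads in control, 9131, 8359 and 11579 in LPS, 7066, 2144 and 2997 in CBD, 16500, 13131 and 8889 in THC, 12640, 9298 and 8452 in CBD+LPS, and 2278, 10730 and 14509 in THC+LPS. It was lowest in the same 4 samples, with a slope of 0.56 ± 0.04 (adjusted p = 3.58e-09), and mir-5109 had nearly the same slope, 0.56 ± 0.05 (adjusted p = 2.82e-08). mir-5099 and mir-5103, the most abundant members, did not pass, with slopes of -0.10 ± 0.04 (adjusted p = 0.151) and -0.05 ± 0.05 (adjusted p = 0.656). GENCODE lists no gene for mir-5105 or mir-5109, while mir-5099 is placed outside genes at chr12:36816205-36816278 (+ strand) and mir-5103 at chr1:34433121-34433199 (- strand) over an exon of the lincRNA Gm37233. Of the other members among the 10 most abundant, mir-5115 had a slope of 0.18 ± 0.06 (adjusted p = 0.039), and miR-5098, miR-5097, mir-5097, mir-5117 and miR-5099 did not pass.

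miR-5121 was the single member past the threshold with a negative slope, -0.29 ± 0.09 (adjusted p = 0.0388). Its reads were 40, 13 and 28 in control, 47, 22 and 48 in LPS, 33, 19 and 31 in CBD, 38, 28 and 29 in THC, 40, 20 and 34 in CBD+LPS, and 43, 23 and 24 in THC+LPS. In CPM it was highest in control 22 (85.1) and THC+LPS 27 (76.4) and lowest in control 28 (22.2). This is the entry whose sequence lies within Snord33.

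**Figure D3:**
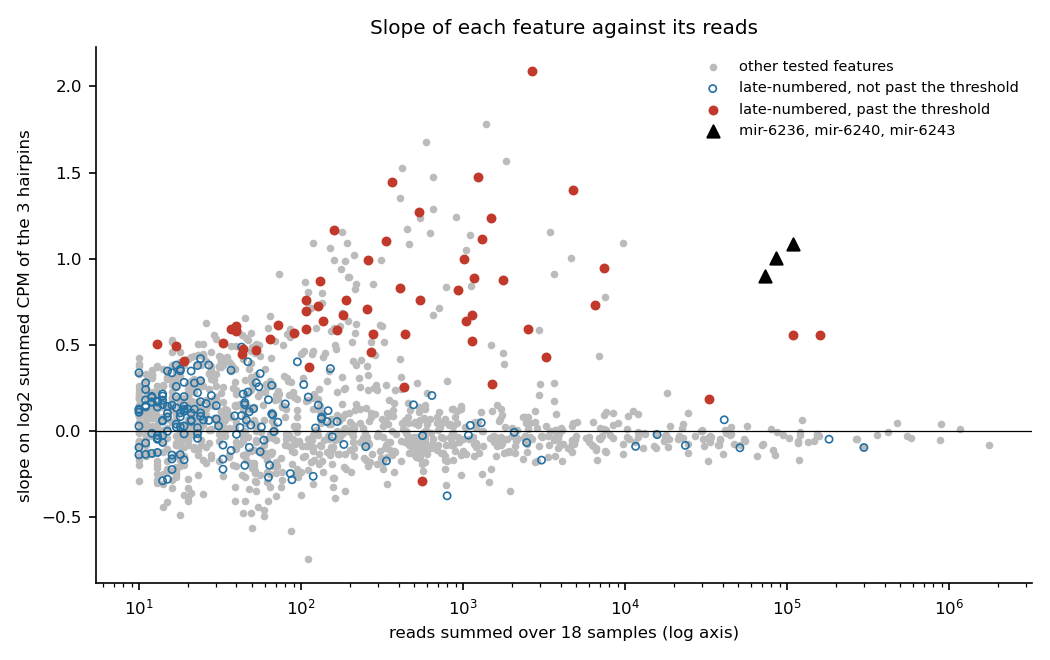
Slope of each of the 1363 tested features on the log2 summed CPM of the 3 abundant hairpins, against the reads of the feature summed over 18 samples (log axis). Filled red points are the 56 members past the threshold, open blue points the other 164 members, grey points other features and triangles the 3 hairpins themselves. The red points lie above 0, from 0.18 for mir-5115 to 2.09 for mir-6361, except that of miR-5121 at -0.29.

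By number of reads, the slope passed in 19 of 32 members with at least 1000 reads, against 41 of 248 other features at that depth. Among members with 100 to under 1000 reads it passed in 24 of 43, against 78 of 338 others, and among those with 10 to 99 reads in 13 of 145, against 55 of 557. The members and the other features thus had like shares at low counts (8.97% and 9.87%) and different shares above 100 reads. By kind, 30 of 129 hairpin members passed (23.3%), against 104 of 500 other hairpins (20.8%). Of the mature members 26 of 91 passed (28.6%), against 69 of 612 other mature miRNAs (11.3%). By number band, the counts were 25 of 95 for numbers from 5000, 27 of 114 for those from 6000 and 4 of 11 for those from 6500 upward. By place, they were 20 of 71 in introns, 9 of 45 over exons, 10 of 47 opposite a gene, 11 of 47 outside genes and 6 of the 10 without a listed gene. No share of other features is given for the counts by band and place, so they cannot be read as particular to the members. The members with no listed gene were also the deepest of these classes, with a median of 15036 reads against 19 to 56 in the others. The GC content of members with a sequence had a median of 51.4% among those past the threshold and 52.2% among the rest.

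A hairpin and a mature miRNA of the same number could be compared in 75 pairs. Both entries passed in 9 pairs, the hairpin alone in 11, the mature miRNA alone in 14 and neither in 41. mir-6364 had a slope of 1.47 with 1241 reads, and miR-6364 one of -0.13 with 12 reads. In the pair of number 6539 the entry with more reads was the one without a slope, since mir-6539 had 258 reads and a slope of 0.99 while miR-6539 had 3055 reads and a slope of -0.17. Number 5100 was alike, with slopes of 0.82 for the hairpin (928 reads) and -0.01 for the mature miRNA (2072 reads). The difference between the slopes of a pair was not tested.

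**Figure D4:**
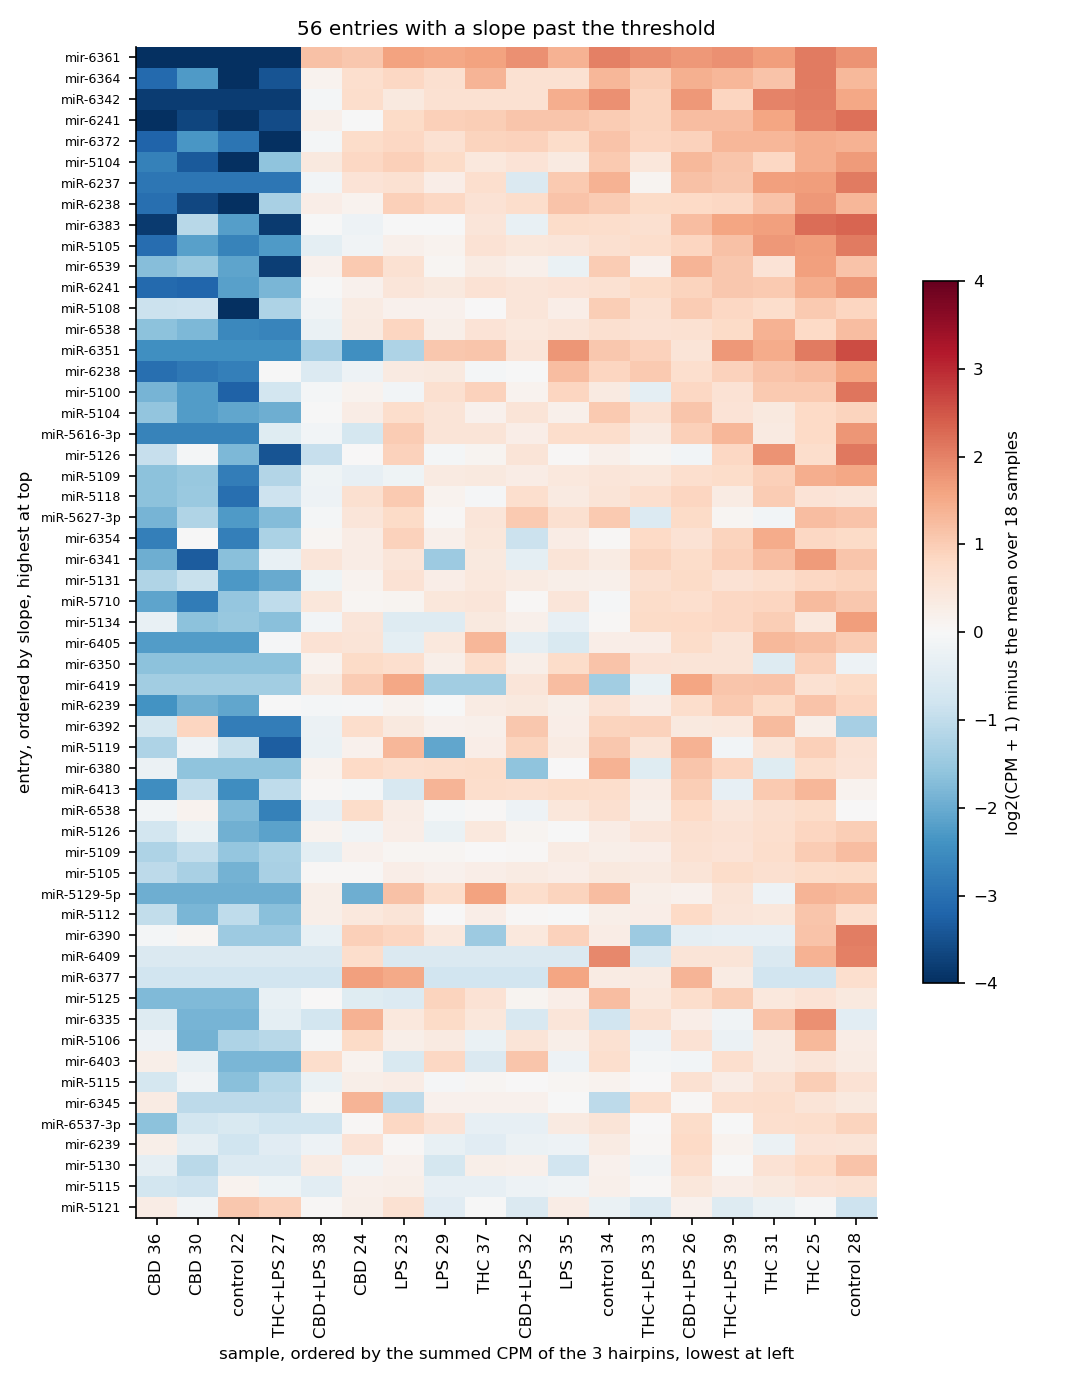
Levels of the 56 members past the slope threshold in each sample, as log2(CPM + 1) minus the mean of the member over 18 samples (colour, clipped at 4). Samples are ordered by the summed CPM of the 3 abundant hairpins, lowest at left, and members by slope, highest at top. CBD 36, CBD 30, control 22 and THC+LPS 27 form a low block at left for the upper rows, and the bottom row, miR-5121, is high in control 22 and THC+LPS 27.

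The treatments were compared next. Comparisons of 2 groups were counted by the study's criterion, an unadjusted p no higher than 0.005 and a change of 1.5-fold or more, and Benjamini-Hochberg adjusted p-values over the 1363 features are given beside them. LPS changed 1 member, miR-5123, against a background of 1.54% of all features. CBD changed 2, mir-5112 and mir-5106 (background 1.61%), and THC changed 1, again miR-5123 (0.44%). CBD+LPS against control gave 1, mir-5099 (1.39%), and THC+LPS against control gave 1, mir-6343 (1.83%). In LPS-treated cells, CBD lowered 1 member, miR-6390 (0.22%), and THC changed none in the limma fit (background 0.22%). At an unadjusted p under 0.05 in that fit, the THC comparison held 6 members (2.73% against 2.35% of all features). On the recovered reads it called 1 by DESeq2 and none by edgeR. These 7 comparisons share their control or LPS samples. At most 2 members, 0.909% of them, were called in any of the 7. With samples 22 to 27 as a covariate, LPS against control again called 1 member (background 1.91%) and CBD against control 3, 2 of them higher (background 2.35% in all, 1.76% higher and 0.587% lower). In that fit miR-5123 was no longer called with THC (unadjusted p = 0.00593, limma), where no member was (background 0.367%), and mir-6343 was lost in THC+LPS against control (unadjusted p = 0.00506).

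**Figure D5:**
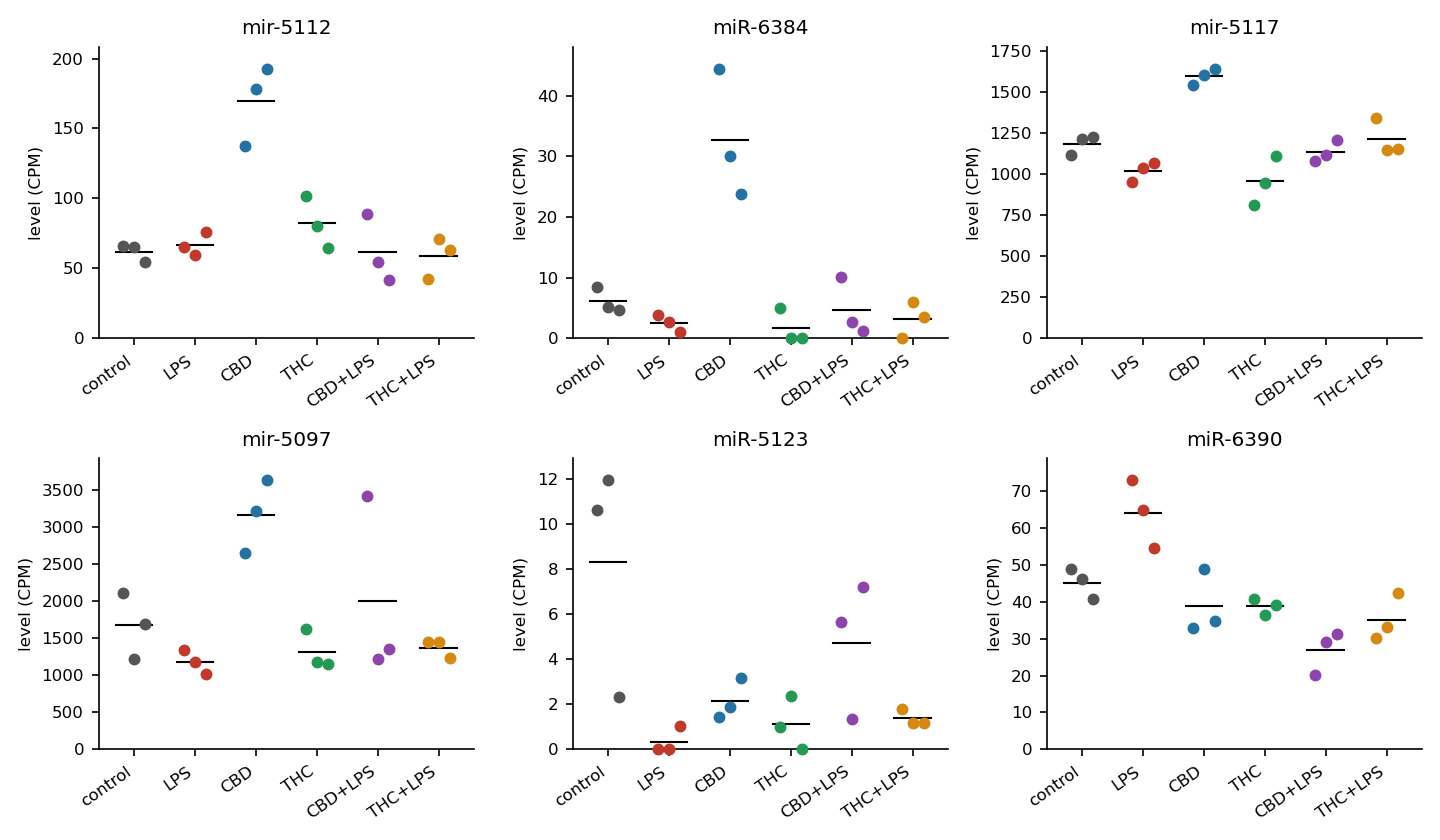
Level in CPM of 6 members called in a comparison of treatments, in each sample of the 6 groups; lines are means of 3. mir-5112, miR-6384, mir-5117 and mir-5097 are highest in CBD, where only mir-5097 has a sample of another group, CBD+LPS 26, among the CBD values. miR-5123 lies at or below 1.03 CPM in LPS, and miR-6390 is lowest in CBD+LPS.

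mir-5112 was the clearest of these. Its reads were 31, 38 and 47 in control, 50, 45 and 74 in LPS, 96, 95 and 122 in CBD, 102, 68 and 48 in THC, 79, 41 and 35 in CBD+LPS, and 24, 60 and 55 in THC+LPS. In CPM each CBD sample (138 to 193) lay above each of the other 15 samples. The mean was 170 ± 28.6 CPM (SD, n = 3) with CBD and 61.9 ± 6.19 in control, a log2 difference of 1.43 ± 0.29 (SE) or 2.70-fold (adjusted p = 0.0479, limma), and mir-5112 also passed the test across the 6 groups (adjusted p = 0.037), as did 2 members in all (background 1.76%), or 5 with samples 22 to 27 as a covariate (background 3.08%). CBD 30 and CBD 36, with the low share of the 3 hairpins, had the higher values, 178 and 193 CPM, and CBD 24 had 138. Without samples 22, 27, 30 and 36, which leaves CBD 24 as the only CBD sample, the difference was 1.19 with an unadjusted p of 0.013 in the limma fit, past the threshold no longer. The slope of mir-5112 was 0.03 ± 0.07.

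The mature product did not follow. miR-5112 had 16, 65 and 70 reads in control and 65, 10 and 22 in CBD, and its CBD samples overlapped the controls, with a log2 difference of -0.76 ± 0.58 (adjusted p = 0.698, limma). It passed the slope threshold (0.52 ± 0.07, adjusted p = 2.21e-05), with its lowest values in CBD 30 and THC+LPS 27. Hairpin and mature miRNA had like totals over the 18 samples, 1110 and 1142 reads. Whether they differed in the response to CBD was not tested.

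miR-6384, from the intron of Gpc3, had 4, 3 and 4 reads in control, 3, 2 and 1 in LPS, 31, 16 and 15 in CBD, 5, 0 and 0 in THC, 9, 2 and 1 in CBD+LPS, and 0, 5 and 3 in THC+LPS. The CBD samples held 23.7 to 44.5 CPM and every other sample at most 10.2. It was 32.7 ± 10.6 CPM in CBD and 6.10 ± 2.10 in control, a log2 difference of 2.24 ± 0.80 whose unadjusted p of 0.0123 missed the threshold (adjusted p = 0.311, limma). It passed the test across the 6 groups (adjusted p = 0.0842), and against THC the difference was 4.17 ± 0.80 (adjusted p = 0.0319), and 4.65 without samples 22, 27, 30 and 36 (unadjusted p = 0.000341 in the limma fit), where CBD 24, the highest of the 3, stood for CBD alone. Most of its counts outside CBD lay near the floor of 3 reads. THC lay under it on average, so that the size of the fitted difference depends on the pseudocount. The reads, 62 in CBD and 5 in THC, gave a ratio of 17.3 with a 95% exact interval of 7.01 to 55.0 for counting error alone.

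miR-5123 had few reads. They were 5, 7 and 2 in control, 0, 0 and 1 in LPS, 1, 1 and 2 in CBD, 1, 2 and 0 in THC, 5, 1 and 6 in CBD+LPS, and 1, 1 and 1 in THC+LPS. Each LPS sample lay below each control, with a log2 difference of -2.65 ± 0.64 (adjusted p = 0.0681, limma). THC against control gave -2.08 ± 0.64, but THC 31 (2.36 CPM) lay above control 34 (2.33 CPM) and the adjusted p was 0.959. Without control 22 the THC difference no longer passed (-1.80), and the LPS call was lost in samples 28 to 39 alone (-2.21, unadjusted p = 0.0228 in the limma fit) and without samples 22, 27, 30 and 36 (-2.38, unadjusted p = 0.00607). LPS and THC lay under the floor, and the fitted differences depend on the pseudocount. The ratio to control of the summed reads was 0.0549 for LPS (1 read against 14, 95% exact interval 0.0013 to 0.361) and 0.158 for THC (3 against 14, interval 0.0291 to 0.566), for counting error alone.

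miR-6390 was the member with the firmest difference under LPS. Its reads were 23, 27 and 35 in control, 56, 49 and 53 in LPS, 23, 26 and 22 in CBD, 41, 31 and 29 in THC, 18, 22 and 26 in CBD+LPS, and 17, 28 and 37 in THC+LPS. In CPM the LPS samples (54.6 to 73.2) lay above all the others, and those with CBD+LPS (20.3 to 31.2) were lower than those of LPS by 1.24 ± 0.27 on the log2 scale (adjusted p = 0.318, limma). The call held in every alternative fit. The adjusted p did not pass in the main limma fit or by edgeR (0.382), and was 0.0789 by DESeq2. miR-6390 is the mature arm with 563 reads of a hairpin with 33 reads, and its own slope was -0.03 ± 0.07.

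Of the other calls, those of mir-5106 and mir-6343 were of low counts. mir-5106 had 3, 5 and 6 reads in control and 3, 0 and 0 in CBD, a log2 difference of -2.24 ± 0.61 (adjusted p = 0.175, limma), and the samples with 0 were CBD 30 and CBD 36. The ratio of its reads, 3 in CBD against 14 in control, was 0.22 (95% exact interval 0.0406 to 0.789, counting error alone), and CBD lay under the floor on average. Without samples 22, 27, 30 and 36, with CBD 24 alone, the log2 difference was -0.72. mir-5099, the most abundant member, was 16994 ± 1664 CPM in CBD+LPS and 26672 ± 7092 in control, with all CBD+LPS samples below all controls. The log2 difference was -0.62 ± 0.19 (adjusted p = 0.329, limma), and -0.44 without control 34, which missed the threshold. This call held by edgeR, by DESeq2 (adjusted p = 0.0389) and with samples 22 to 27 as a covariate. It was lost with the hairpin covariate and in samples 28 to 39 alone. Without samples 22, 27, 30 and 36 the difference was -0.57. mir-6343 had 2, 1 and 4 reads in control and none in THC+LPS, and since the mean of either group lay under the floor no fold is given.

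In the main fit, CBD and THC, both plant cannabinoids and here at the same dose, differed in more members than any treatment differed from control. This ranking did not hold in every fit. The low share of the 3 hairpins was found in CBD 30, CBD 36 and control 22, but in no THC sample. With the log2 level of the 3 hairpins as a covariate, CBD against control called more members than CBD against THC. With samples 22 to 27 left out, both comparisons called nearly the same number. Against THC, 14 of the 220 members were called with CBD, 5 higher (background 1.32%) and 9 lower (1.98%), that is 6.36% of the members against a background of 3.3%. The median log2 difference was -0.31 over the members and -0.08 over all features, and the groups did not overlap in 63 members (28.6% against 20.6% of all features), in 19 with CBD higher (background 10.1%) and in 44 with CBD lower (10.6%). The higher members were miR-6384, mir-5117, mir-5097, mir-5112 and miR-6336, and none of these had a slope past the threshold. The lower members were mir-6366, miR-5710, miR-5129-5p, miR-6415, miR-6239, miR-6351, mir-6405, miR-6241 and mir-6341, and 7 of the 9 had one. With the log2 level of the 3 hairpins as a covariate (background 1.39%), 3 of the 14 remained called, miR-6384, mir-5117 and mir-5112, all of them higher with CBD. Leaving out single samples changed the count of members called. No share over all features is given for these fits, so the changes cannot be read as particular to the members. The count was 4 without CBD 30, 6 without CBD 36, 5 without THC 31 or THC 37, 7 without THC 25, 25 without CBD 24 and 29 without control 22. Without samples 22, 27, 30 and 36, CBD 24 alone against 3 THC samples, it was 4 (background 1.03%). Of the 14, miR-6384, miR-6351 and miR-5129-5p were then still called, while mir-5117 (unadjusted p = 0.00917, limma) and mir-5112 (unadjusted p = 0.0767) were not. With samples 22 to 27 as a covariate it was again 14 (background 4.04%), 11 of them among the 14, and mir-6405, miR-6241 and mir-6341 were lost.

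mir-5117, the entry in Gas5, was the most even of these members. Its reads were 524, 711 and 1054 in control, 727, 786 and 1035 in LPS, 1076, 856 and 1040 in CBD, 816, 801 and 824 in THC, 957, 840 and 1009 in CBD+LPS, and 755, 972 and 1006 in THC+LPS. In CPM the CBD samples (1543 to 1644) lay above all 15 others, and CBD was higher than THC by 0.75 ± 0.15 (1.68-fold, adjusted p = 0.0355, limma). Against control the difference was 0.43 ± 0.15, 1.35-fold and under the fold threshold. Its mature arms had at most 20 reads in a sample, and neither was called.

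mir-5097 had 2647, 3217 and 3640 CPM in CBD and 1624, 1178 and 1154 in THC, a difference of 1.27 ± 0.31 (adjusted p = 0.105, limma). Against control it was 0.94 ± 0.31 with an unadjusted p of 0.00697, just outside the threshold. CBD+LPS 26, at 3417 CPM, lay within the CBD range while CBD+LPS 32 and 38 had 1214 and 1358 CPM. The mature miR-5097 was 3134 ± 579 CPM in CBD and 3019 ± 237 in THC, and its log2 difference was 0.04 ± 0.19.

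Among the lower members, miR-6351 was not counted in any CBD sample and had 22, 12 and 8 reads in THC and 0, 19 and 9 in control. Set at a floor of 3 reads per library, 4.89 CPM on average in CBD, it was at least 3.19-fold lower with CBD than with THC (adjusted p = 0.135, limma). It was also not counted in control 22 and THC+LPS 27, and its slope was 0.87 ± 0.20. miR-5129-5p, whose hairpin lies at chr2:45023100-45023177 (- strand) in Zeb2, had no read in CBD and 9, 2 and 8 in THC, at least 1.51-fold lower on the same floor. It too was at 0 in control 22 and THC+LPS 27, with a slope of 0.53 ± 0.16. miR-5710, from an intron of Dnaja4, had 43, 4 and 8 reads in CBD and 141, 90 and 60 in THC, a log2 difference of -2.47 ± 0.68 (adjusted p = 0.131), and with the covariate it was -0.56. miR-6241 likewise went from -3.06 to -0.24 with the covariate. mir-6366 and miR-6415 had at most 3 reads in any sample of these groups, at or under the floor, and no fold is given.

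mir-5112, miR-5129-5p, miR-6351, miR-6384 and miR-5123 are the members that the study lists among its treatment-responsive miRNAs, on these same samples, so that their directions here are not independent evidence.

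The responses of the members to CBD or THC did not pass a test of difference between resting and LPS-treated cells. No member passed in either interaction (background 0%, adjusted p at most 0.1, limma). Before adjustment, 12 members in the case of CBD were below 0.05 (5.45% against 4.77% of all features). In that of THC there were 10 (4.55% against 3.74%). These shares were near those of all features. CBD+LPS against THC+LPS gave no call either (background 0.147%), with 5 members at an unadjusted p under 0.05 (2.27% against 2.64% of all features, limma). On recovered reads, neither DESeq2 nor edgeR (quasi-likelihood) called a member in these 3.

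CBD against control changed with the choice of samples. Of the control samples, control 22 had a low share of the 3 hairpins, as had CBD 30 and CBD 36. Without control 22 the comparison called 19 members in place of 2, where no share over all features is given. In samples 28 to 39 alone, where both CBD samples and neither control had the low share, it called 46 members, 5 higher and 41 lower (background 11.2% in all, 1.91% higher and 9.32% lower), and 39 of the 41 lower ones had a slope past the threshold over the 18 samples. Without samples 22, 27, 30 and 36, with CBD 24 alone, it called 2 (background 1.1%), neither of them mir-5112 or mir-5106. With the hairpin covariate in all 18 samples it called 8 (background 2.79%). In the same samples 28 to 39, CBD against THC called 47 members (background 11.6%), the interaction of CBD with LPS 37 (9.83%), the test across groups 47 (18.2%) and the slope 12 (2.71%). The level of the 3 hairpins and CBD treatment cannot be told apart within samples 28 to 39, since in that subset the CBD samples are the ones with the low share. The slopes over the 18 samples also use CBD 30 and CBD 36, so the 39 of 41 above is not independent of the calls. Its counterpart over all features is not given, so it cannot be read as particular to the members.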

How the data were processed

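By the study's methods, the authors ran TruSeq small RNA libraries as a single pool on a HiSeq instrument, aligned the reads with BWA to the mouse entries of miRBase, allowing up to 10 mappings per read, and used edgeR. How reads were divided between a hairpin and its mature product, and the miRBase release used for alignment, are not given in the sources used here. The deposited values are CPM on TMM-scaled library sizes. Where the TMM factor makes a sample sum to more than plain CPM can, the unit of the deposited values was recorded as signal, although the quantity is the same. Whole reads were recovered for 100% of values (tolerance 0.001 reads). They gave 442718 to 1057147 reads per sample, and no samples of a group agreed within sampling noise (chi-square per degree of freedom at least 3.04).

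The 1363 features with at least 10 reads were tested with limma 3.58.1 (R 4.3.3, mean-variance trend) on log2(CPM + 1), 6 groups in one model, 2-sided. Fold changes are on that scale, which understates changes at low counts. An entry that reached 10 reads through 1 group alone had to differ between groups. Comparisons of 2 groups used p at most 0.005 (unadjusted) and 1.5-fold, the others an adjusted p of at most 0.1 (Benjamini-Hochberg). The slope model added the log2 sum of mir-6243, mir-6240 and mir-6236. The members, lists and tests were chosen with earlier results of these data known. Named are the 10 most abundant members, those the study lists, every member called (up to 8 a comparison), the 5 steepest slopes by p in each direction and those at the limit of 10 reads; the rest of the CBD against THC calls, and members of the hairpin pairs, were named after their values were seen. The fits were checked on simulated data. Alternatives were pseudocounts of 0.5 and 2, a filter of 1 read, RLE or library size scaling, the hairpin covariate, samples 22 to 27 as a covariate, subsets of samples, edgeR 4.0.16 and DESeq2 1.42.0 on recovered reads, an adjusted threshold and leaving out each sample. Positions are from GENCODE M21 and sequences from RefSeq, neither being the files the authors aligned to.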

Additional observations from a re-analysis of the deposited data

Results flagged for a closer look

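The fitted differences of mir-5117 with THC had opposite signs in resting and in LPS-treated cells, but it was called in neither comparison. Each THC sample (811 to 1113 CPM) lay below each control (1114 to 1228 CPM), by 0.32 ± 0.15 on the log2 scale, and each THC+LPS sample (1149 to 1342 CPM) above each LPS sample (951 to 1066 CPM), by 0.25 ± 0.15. The gap between THC 37 (1113 CPM) and control 22 (1114 CPM) was under the value of 1 read, 1.35 and 2.13 CPM in these libraries. The difference between the responses, 0.57 ± 0.22, had an unadjusted p of 0.017 and an adjusted p of 0.935 by limma, so that it did not pass over all features.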

How the results depend on the processing

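No paired analysis was made, since the groups share no replicate numbers, each number from 22 to 39 being used once. Samples 22 to 27, 28 to 33 and 34 to 39 each hold a sample of every group, but no fit took all these sets as blocks. Each comparison was refitted with samples 22 to 27 as a covariate, chosen after seeing the data. It gave 0 calls for THC and 0 for THC+LPS against control (1 call each), 1 for THC+LPS against LPS (0 calls) and 5 across groups (2 calls), and stayed within 1.5 times the count elsewhere. Without samples 22, 27, 30 and 36, CBD is 1 sample, assumed to vary like the other groups. Counts below are members called. Where no share over all features is given above, such a count cannot be read as particular to the members. For LPS against control, with 1 call, the hairpin covariate gave 2 and samples 28 to 39 alone 3. CBD against control (2 calls) gave 8 with the covariate, 46 in samples 28 to 39, 4 by edgeR and 1 at an adjusted p of at most 0.1. THC against control (1 call) gave 2 with a pseudocount of 2, 4 in samples 28 to 39 and 0 with a pseudocount of 0.5, a filter of 1 read, the covariate, without samples 22, 27, 30 and 36, by edgeR, by DESeq2 and at the adjusted threshold. CBD+LPS against control (1 call) gave 2 with library size alone, 9 in samples 28 to 39 and 0 without samples 22, 27, 30 and 36 or at the adjusted threshold. THC+LPS against control (1 call) gave 0 without those 4 samples, by edgeR, by DESeq2 and at the adjusted threshold. CBD+LPS against LPS (1 call) gave 0 at the adjusted threshold, and THC+LPS against LPS (0 calls) gave 1 with library size alone, the covariate or DESeq2. CBD against THC (14 calls) gave 5 with the covariate, 47 in samples 28 to 39, 4 without the 4 samples, 7 by edgeR and 2 at the adjusted threshold. The interaction of CBD with LPS (0 calls) gave 37 in samples 28 to 39. The test across groups (2 calls) gave 1 with a pseudocount of 0.5, 47 in samples 28 to 39, 0 without the 4 samples and 5 by DESeq2. The slope (56 calls) gave 12 in samples 28 to 39 and 11 without the 4 samples. With log2 total reads as a further covariate, chosen after seeing the data, it gave 50, of which 47 were among the 56, and with samples 22 to 27 as a covariate, also chosen then, 67. By edgeR it gave 50 and by DESeq2 43.

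With each sample left out in turn, the calls ranged from 1 to 2 for LPS, 1 to 19 for CBD, 0 to 2 for THC, 0 to 2 for CBD+LPS and 0 to 1 for THC+LPS against control, from 1 to 3 for CBD+LPS and 0 to 1 for THC+LPS against LPS, from 4 to 29 for CBD against THC, from 0 to 1 for CBD+LPS against THC+LPS, from 0 to 6 across groups and from 43 to 59 for the slope, the lowest without control 22. Of 899 values for named members under all alternatives, 694 kept their side of the threshold, 191 were weaker, 14 stronger and none reversed. The causes were not tested. Scaling by library size alone shifted the median of all features by -0.13 for LPS, -0.10 for CBD+LPS and -0.13 for THC+LPS against control on the log2 scale. Depth limits the 145 members with fewer than 100 reads, where a sample holds a few reads or none.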
